A study of Mus musculus with 15 samples.

Results

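Macrophages and other phagocytes are recognised by a small set of genes, and 10 of these were followed in mouse embryo heads taken at E9.5. They were Spi1, Csf1r, Ptprc, Cx3cr1, Tyrobp, Fcer1g, Mrc1, Aif1, Cd68 and Ncf4. All probes carrying one of these gene names were taken, whatever their signal. The arrays named 19057 genes in all. Of the 10 genes, 9 had a named probe, with 15 probes between them. No probe of Cd68, a lysosomal glycoprotein of macrophages, was named in the probe table used here, so Cd68 has no value.

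The study looked for targets of TWIST1, a basic helix-loop-helix factor, in mesoderm of the head. Total RNA of 15 samples was hybridised to Illumina bead arrays, 1 array per sample, and each sample is called a head here, although the labels do not say whether any was pooled. The embryos descended from the strains C57Bl/6, 129 and BALB/c, and all 4 groups carried 1 floxed Twist1 allele. CM-CKO heads (n = 4) were Twist1flox/del with Mesp1Cre/+, so that cells of the Cre lineage would lose both Twist1 copies and all other cells would keep 1. Het heads (n = 4) were Twist1flox/del with Mesp1+/+ and had the same Twist1 alleles without Cre. CM-Het heads (n = 4) were Twist1flox/+ with Mesp1Cre/+, and Control heads (n = 3) were Twist1flox/+ with Mesp1+/+. Cre expressed from the Mesp1 locus is active in early mesoderm, which gives rise to several tissues of the head, and a whole head mixes that lineage with neural crest, brain, ectoderm and blood.

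Mean signal per array was 341 to 434.4, and the number of detected probes (detection p under 0.05) was 19204 to 19793. Arrays correlated at r = 0.964 to 0.994 over the tested genes. Twist1, read by 1 probe, lay at log2 8.94 to 9.34 in CM-CKO, 8.62 to 9.32 in Het, 9.76 to 10 in CM-Het and 9.87 to 9.95 in Control heads. Both groups with a deleted allele thus lay below both groups without one, and the probe's place relative to the deleted part is not known. The arrays lay on 3 slides: slide 1 held CM-CKO 1 to 3 and Het 1, slide 2 held no CM-CKO head, and slide 3 held CM-CKO 4 with heads of the other 3 groups. Of 3 tested head markers, Otx2 and Six3 were not called and Lhx2 fell. Its fall was 0.91 against Control, 0.92 against Het and 0.81 against CM-Het (limma, adjusted p = 0.000923, 0.000361 and 0.00099). Of 5 tested trunk markers 0 were called, among them Hoxc8 and Myog, detected on 6 and 5 arrays. Against Control 3.28% of all genes were called lower and 3.96% higher, and lists this short cannot be read against such shares. Otx2 was detected on all 15 arrays.

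The first macrophages of the mouse embryo come from the yolk sac and enter the head with the circulation, where some become the microglia of the brain. SPI1 (PU.1) is the transcription factor that sets the myeloid programme. CSF1R, the receptor for the cytokines CSF1 and IL34, keeps macrophages alive. TYROBP (DAP12) and FCER1G (the common Fc receptor gamma chain) are membrane adaptors whose ITAM motifs pass signals from activating receptors to kinases of the SYK family. The phagocyte NADPH oxidase, which makes superoxide at the phagosome, joins a membrane pair (CYBB and CYBA) with cytosolic subunits, among them NCF1 and NCF4, and a RAC GTPase.

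Of the 4 members that could be tested, 1 rose in CM-CKO heads: Ncf4, by 2.58 to 3.11 on the log2 scale in 3 comparisons. Aif1, Mrc1 and Fcer1g lay near the detection threshold and did not pass the test in any comparison. Spi1, Csf1r, Ptprc, Tyrobp and Cx3cr1 lay at background in every group. A probe was kept where it was detected on at least 3 arrays, and 4 of the 15 probes were kept, against 48.3% of all 45281 probes on the arrays. In terms of genes, 4 of the 9 measured members (44.4%) could be tested, against 61% of all named genes. The log2 signal at the detection threshold was 4.71 to 4.76 across the arrays. In whole heads, fewer cells of a type and less RNA per cell cannot be told apart.

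Spi1, read by 1 probe, was detected on 0 of 15 arrays. Its log2 signal was 4.51, 4.53, 4.47 and 4.51 in CM-CKO heads, 4.72, 4.44, 4.35 and 4.32 in Het heads, 4.40, 4.40, 4.55 and 4.37 in CM-Het heads, and 4.73, 4.35 and 4.29 in Control heads. The groups overlapped throughout. Csf1r had 2 probes. The brighter one read 4.61, 4.71, 4.68 and 4.40 in CM-CKO heads, 4.72, 4.54, 4.85 and 4.63 in Het heads, 4.64, 4.50, 4.66 and 4.45 in CM-Het heads, and 4.54, 4.35 and 4.58 in Control heads. It passed detection on 1 array, that of Het 3, and the second Csf1r probe on 0.

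Ptprc encodes CD45, the phosphatase on the surface of nearly all white blood cells, and its 4 probes were detected on 0 arrays. The brightest of its readings, 4.60, came from CM-CKO 1 on the third probe. Tyrobp lay at 4.19 to 4.29 in CM-CKO, 4.23 to 4.27 in Het, 4.16 to 4.28 in CM-Het and 4.24 to 4.37 in Control heads. Cx3cr1, the fractalkine receptor of microglia and their precursors, lay at 4.34 to 4.50 in CM-CKO, 4.23 to 4.63 in Het, 4.36 to 4.38 in CM-Het and 4.21 to 4.34 in Control heads. Neither was detected on any array.

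Across these 5 genes the 9 probes spanned deposited signals of 89.95 to 119.5, while the signal at the detection threshold was 106 to 121. When the detection filter was dropped and all named genes were fitted, the 5 genes gave 35 tests over 7 comparisons. Their log2 differences lay between −0.16 and 0.19. In limma 0 of the 35 had an adjusted p under 0.05 (lowest 0.421), and 0 had an unadjusted p under 0.05. A difference between groups was not detectable at these signals, which does not show that the genes were silent.

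**Figure D1:**
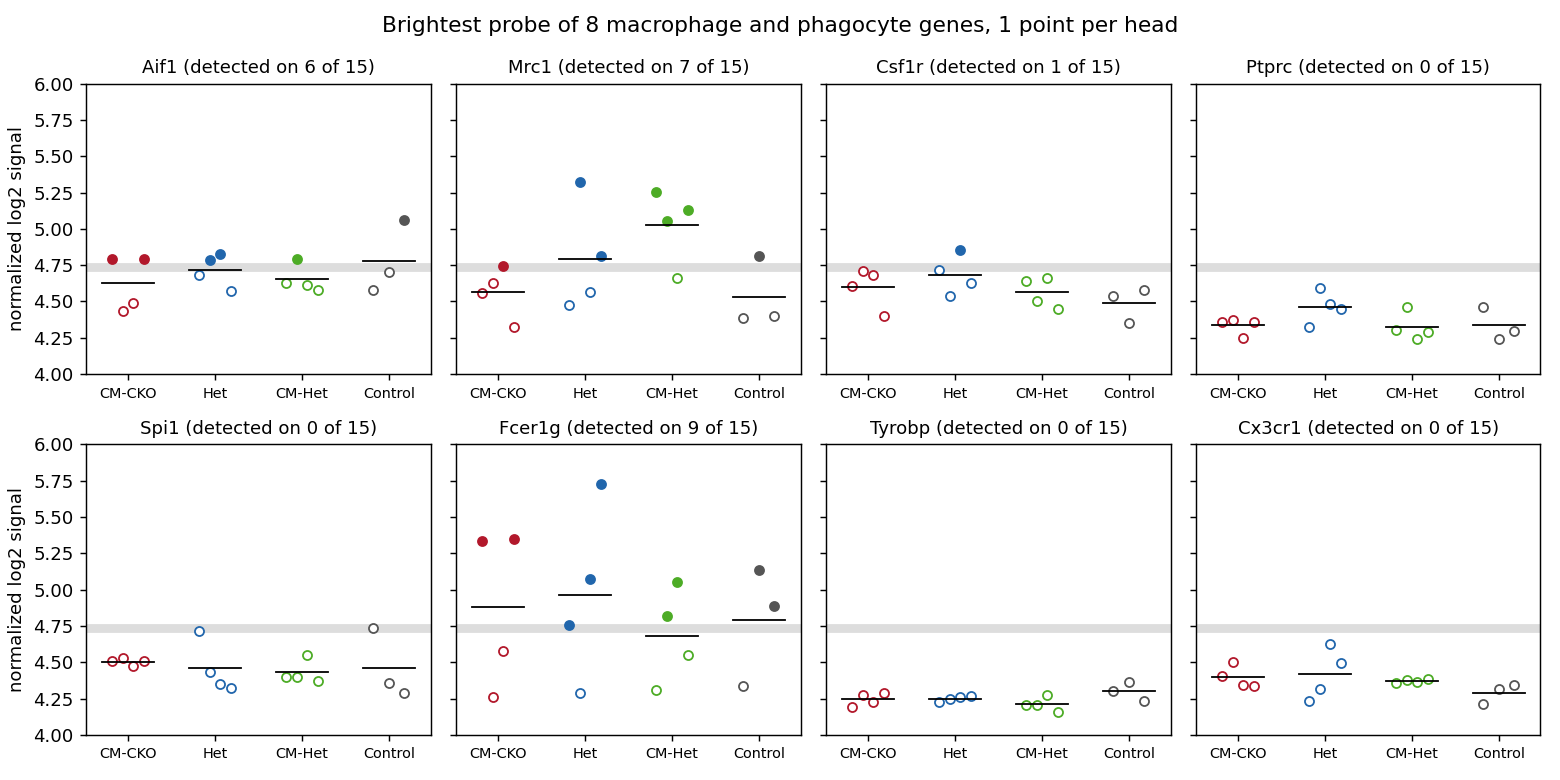
Normalized log2 signal (y axis) of the brightest probe of 8 members in each head, by genotype group (x axis). Filled points were detected, open points were not, black lines are group means, and the grey band is the detection threshold (4.71 to 4.76). Spi1, Ptprc, Tyrobp and Cx3cr1 have only open points, and the groups overlap in all 8 panels.

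Fcer1g was detected on 9 of 15 arrays and varied most of the 3 dim genes. Its log2 signal was 5.34, 4.26, 4.57 and 5.35 in CM-CKO heads, 4.76, 4.29, 5.07 and 5.73 in Het heads, 4.31, 4.82, 5.05 and 4.55 in CM-Het heads, and 4.34, 5.14 and 4.89 in Control heads. Every group held heads on both sides of the detection threshold. The difference of CM-CKO was 0.09 ± 0.32 (SE) from Control (adjusted p = 0.901), −0.08 ± 0.30 from Het (adjusted p = 0.903) and 0.20 ± 0.30 from CM-Het (adjusted p = 0.728). The 95% interval against Control, the widest of the 3, ran from 0.662-fold to 1.72-fold.

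Mrc1, the mannose receptor CD206 of tissue macrophages, was detected on 7 arrays, 3 of them CM-Het. It lay at 4.56, 4.63, 4.75 and 4.32 in CM-CKO heads, 4.47, 5.32, 4.57 and 4.82 in Het heads, 5.25, 5.05, 4.66 and 5.13 in CM-Het heads, and 4.39, 4.81 and 4.40 in Control heads. CM-Het 1, 2 and 4 stood above all CM-CKO and all Control heads, and CM-Het 3 lay among them. CM-CKO was 0.46 ± 0.18 (SE) lower than CM-Het on the log2 scale, a fold of 0.726 (95% interval 0.559 to 0.942, unadjusted p = 0.0194, adjusted p = 0.115). CM-Het was 0.49 higher than Control (unadjusted p = 0.0212, adjusted p = 1). After adjustment over all 11625 genes neither passed, nor did the differences of CM-CKO from Control (0.03, adjusted p = 0.951) and from Het (−0.23, adjusted p = 0.460).

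Aif1 encodes IBA1, the calcium-binding protein used to stain microglia and macrophages. The brightest of its 3 probes, detected on 6 arrays, read 4.79, 4.44, 4.49 and 4.79 in CM-CKO heads, 4.68, 4.79, 4.82 and 4.57 in Het heads, 4.63, 4.79, 4.61 and 4.58 in CM-Het heads, and 4.58, 4.71 and 5.06 in Control heads. The groups overlapped, and Control 3 was the highest head on all 3 probes (4.78 and 4.55 on the other 2). CM-CKO differed by −0.15 from Control (adjusted p = 0.513), −0.09 from Het (adjusted p = 0.703) and −0.03 from CM-Het (adjusted p = 0.922). The 95% interval against Control ran from 0.745-fold to 1.08-fold.

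Ncf4 stood apart from these genes. Its single probe was detected on 14 arrays, all but that of Het 1. The log2 signal was 7.22, 8.96, 6.50 and 9.40 in CM-CKO heads, 4.43, 4.88, 5.40 and 4.92 in Het heads, 5.08, 4.88, 4.94 and 4.88 in CM-Het heads, and 5.61, 5.82 and 4.89 in Control heads. All 4 CM-CKO heads lay above all 11 other heads, as was the case for 3.17% of the tested genes. The lowest CM-CKO head, CM-CKO 3, was still above Control 2, the highest of the others. On the deposited scale, before any correction, the signals were 229, 672, 166 and 641 in CM-CKO heads and 105 to 151 in the other 11. The CM-CKO heads differed from each other more than any other group did, with an SD of 1.38 against 0.39 in Het, 0.09 in CM-Het and 0.49 in Control heads.

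**Figure D2:**
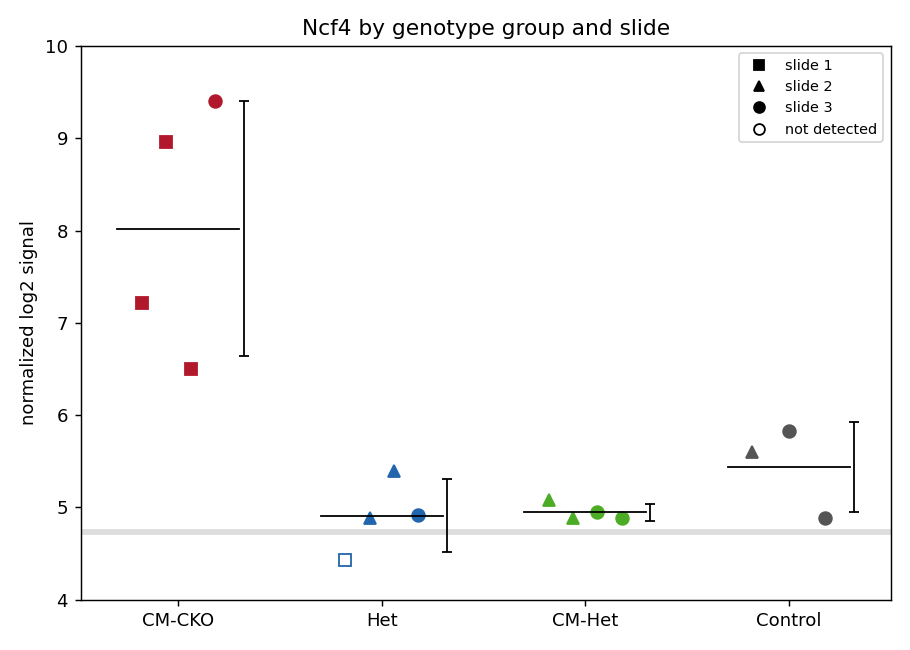
Normalized log2 signal of Ncf4 (y axis) in each head by genotype group (x axis), with marker shape giving the slide. Black lines are group means, error bars are SD (n = 4, 4, 4 and 3), the grey band is the detection threshold and the open point was not detected. CM-CKO heads lie between 6.50 and 9.40, and the other heads between 4.43 and 5.82.

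Against Control, Ncf4 was higher by 2.58 ± 0.51 (SE), or 5.99-fold (95% interval 2.84 to 12.6, adjusted p = 0.00664). It was 1 of 4 tested members called in that comparison, in which 7.23% of all genes were called, 3.96% higher and 3.28% lower. Of the called genes 54.7% were higher, and 77.4% with median scaling. Against Het, which shares the Twist1 alleles and lacks Cre, the rise was 3.11 ± 0.47, or 8.66-fold (95% interval 4.33 to 17.3, adjusted p = 0.00088, 8.47% of genes called, 4.15% higher and 4.33% lower). Against CM-Het, which shares Cre and has a wild-type Twist1 allele, it was 3.07 ± 0.47, or 8.42-fold (95% interval 4.21 to 16.8, adjusted p = 0.000929, 9.91% of genes called, 5.29% higher and 4.62% lower). Of the genes called against CM-Het 53.4% were higher, and 38.9% with median scaling. By size of the log2 rise Ncf4 ranked 14, 4 and 5 of 11625 genes in these comparisons, and by p-value 210, 89 and 98. These comparisons share the CM-CKO heads.

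The comparisons without CM-CKO gave no call for any member. Ncf4 differed by −0.53 between Het and Control (adjusted p = 0.965), by −0.49 between CM-Het and Control (adjusted p = 1) and by 0.04 between CM-Het and Het (adjusted p = 1). Of all 11625 genes, 0% were called in limma in Het against Control and 0% in CM-Het against Control, with 636 and 413 at an unadjusted p under 0.05, and 0.0172% in CM-Het against Het. The 95% intervals of Ncf4 reached from 0.328-fold to 1.46-fold for Het against Control and from 0.337-fold to 1.5-fold for CM-Het against Control. Any change within these intervals is compatible with the values of 3 or 4 heads per group. The intervals use 1 spread shared by all groups, which includes that of the CM-CKO heads (SD 1.38).

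The interaction asks whether the difference that Cre makes depends on the second Twist1 allele. It is the CM-CKO minus Het difference less the CM-Het minus Control difference. For Ncf4 it was 3.61 ± 0.69 (SE), or 12.2-fold (95% interval 4.40 to 33.7, adjusted p = 0.0209). That was the highest log2 value of all 11625 genes, and rank 52 by p-value. Of those genes 1.07% were called, 0.671% higher and 0.396% lower. The interaction was also called higher for 5 of 9 tested erythroid markers (list median 2.97). Among 7 tested megakaryocyte markers it was called higher for 1, Pf4 (list median 1.39). In both lists 0 were called lower. Alas2 gave 3.49, Kel 3.23 and Pf4 3.22 in limma (adjusted p = 0.0224, 0.0271 and 0.0145). Klf1 kept its interaction call in 10 of 26 refits and Kel in 15 of 26. Aif1, Mrc1 and Fcer1g gave 0.04, −0.72 and 0.03, and none was called (adjusted p = 0.952, 0.209 and 0.991). The Ncf4 call ended without Control 1 (3.52, adjusted p = 0.0581) or without Control 2 (3.41, adjusted p = 0.0650), the higher heads of that group. It also ended without background correction, at 1.82 (adjusted p = 0.0935).

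**Figure D3:**
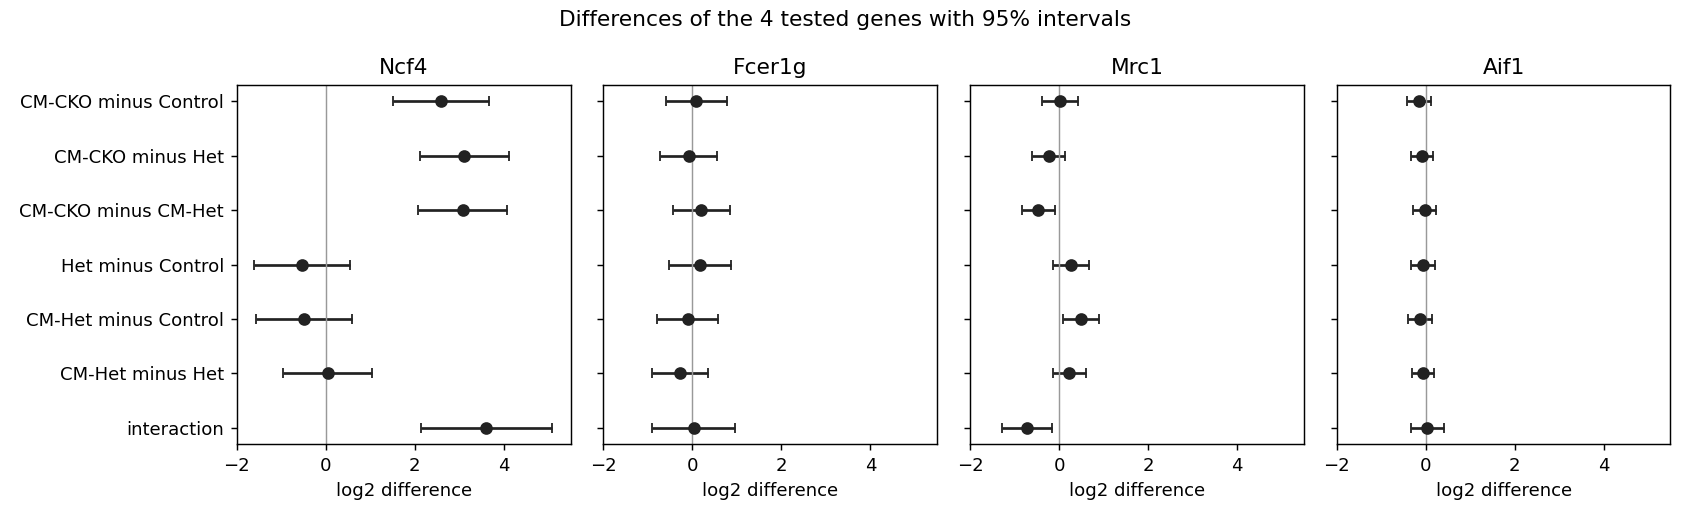
Log2 differences (x axis, points) of the 4 tested members with 95% intervals (bars) in 7 comparisons (y axis). For Ncf4 the 3 CM-CKO comparisons and the interaction lie at 2.58 to 3.61, while all differences of Fcer1g, Mrc1 and Aif1 lie between −0.72 and 0.49.

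Slide was partly shared with genotype, since CM-CKO 1 to 3 lay on slide 1 with Het 1 alone. With slide as a block the Ncf4 differences were 3.51 from Control (adjusted p = 0.00335), 3.74 from Het (adjusted p = 0.000744) and 4.01 from CM-Het (adjusted p = 0.00136). Within slide 1 the mean of 3 CM-CKO heads exceeded Het 1 by 3.13. Within slide 3 the single CM-CKO head exceeded the Control heads by 4.04, the Het head by 4.48 and the CM-Het heads by 4.49. The rise was thus present within each slide that held a CM-CKO head and the values within slide 3 rest on 1 CM-CKO array. Without background correction the log2 differences were 1.49, 1.66 and 1.65 from Control, Het and CM-Het (adjusted p = 0.0213, 0.00715 and 0.00669). Fitted on the CM-CKO and Control arrays alone, the difference from Control had adjusted p = 0.0740.

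Of the other oxidase genes, the 2 that could be tested were not called. Cybb, the catalytic membrane subunit, and Ncf1, the organising cytosolic subunit, had 2 probes each and were detected on 0 arrays. Whether these changed was not measurable here. Cyba, the widely expressed membrane partner, lay at 8.96, 9.16, 9.31 and 9.12 in CM-CKO heads, against 9.37, 9.17 and 9.48 in Control heads. Its difference was −0.20 (adjusted p = 0.379) from Control, −0.03 (adjusted p = 0.918) from Het and −0.21 (adjusted p = 0.280) from CM-Het. Rac1, the widely expressed GTPase, differed by −0.27 from Control (adjusted p = 0.229). Of the 5 other oxidase genes with a probe, 3 had no kept probe and 0 of the 2 tested (Cyba and Rac1) were called in any CM-CKO comparison, with medians of −0.24, −0.07 and −0.19 against Control, Het and CM-Het.

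Other macrophage markers were mostly at background as well. Of 23 further surface and secreted markers, 18 had no kept probe, among them Adgre1 (F4/80), Itgam (CD11b), Cd14 and Lyz2. Of these 18, 10 were detected on 0 arrays. Among the 5 tested, 0 rose, and 1, 1 and 2 fell against Control, Het and CM-Het, with medians of −0.26, −0.31 and −0.33, while the median of all genes was −0.03, −0.04 and −0.03. In these comparisons 3.28%, 4.33% and 4.62% of all genes were called lower. The 5 tested were Mertk and, named after their values were seen, Stab1, Cd83, Axl and Sirpa. The median against Control was the value of Stab1, which was not called. That against CM-Het was the value of Cd83, which was detected on 0 CM-CKO arrays and was not called. The medians thus rest on single genes. Mertk, a receptor for dying cells that is not restricted to macrophages, lay at 6.52, 5.82, 5.97 and 5.96 in CM-CKO, 6.51 to 6.80 in Het, 6.63 to 6.70 in CM-Het and 6.48 to 6.76 in Control heads. It fell by 0.54 against Control (adjusted p = 0.0318), 0.62 against Het (adjusted p = 0.00787) and 0.60 against CM-Het (adjusted p = 0.00913). The Mertk call against Control ended without any of Control 1 to 3 or CM-CKO 2 to 4, and with a slide block the calls against Control and CM-Het ended (highest adjusted p of all refits 0.624 and 0.303). Sirpa, an inhibitory receptor of myeloid cells and neurons named after its values were seen, fell by 0.43 against CM-Het (adjusted p = 0.0495), a call that 6 of 20 refits kept, and gave −0.21 and −0.31 against Control and Het (adjusted p = 0.405 and 0.160).

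Of the genes that act before or beside CSF1R, 9 had a probe and 5 were tested. Csf1, the ligand, was higher in CM-CKO heads by 0.45 against Control (adjusted p = 0.0372), at least 1.21-fold since it was detected on 0 Control arrays. That call held in 5 of 18 refits and ended without any of Control 1 to 3, CM-CKO 2 or CM-CKO 3 (highest adjusted p 0.926). Runx1, the factor that starts blood formation, lay at 5.19, 4.75, 4.36 and 5.05 in CM-CKO heads and 4.28 to 4.36 in Het heads. It was detected on 2 CM-CKO, 0 Het, 0 CM-Het and 1 Control arrays. Its differences from Control, Het and CM-Het were 0.38, 0.51 and 0.30 in limma (adjusted p = 0.170, 0.0503 and 0.240), and none passed. As lower bounds, the folds of Runx1 over Het and CM-Het were at least 1.08 and 1.09. Irf8, which acts in macrophage and microglial differentiation, gave 0.21 against Control (adjusted p = 0.444). Of the 4 genes with no kept probe, Il34 is the second ligand of CSF1R and Myb a factor of adult-type blood stem cells.

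Of the ITAM receptors and the enzymes downstream of them, 15 had a probe and 8 were tested. Of the 7 others 6 were detected on 0 arrays, among them Syk, Trem2 and Fcgr1. The share of all genes called higher was 3.96%, 4.15% and 5.29% against Control, Het and CM-Het. Btk, a kinase of B cells, myeloid cells and megakaryocytes, was the 1 called gene. It read 5.60, 6.29, 4.57 and 6.25 in CM-CKO heads, 4.44 to 4.94 in Het, 4.42 to 4.61 in CM-Het and 4.60 to 4.65 in Control heads. CM-CKO 3 lay within the range of the other groups and the other 3 CM-CKO heads above it. Btk was at least 1.92-fold higher than in Control (adjusted p = 0.0409), 1.88-fold higher than in Het (adjusted p = 0.0491) and at least 1.94-fold higher than in CM-Het (adjusted p = 0.0139). Leaving out any of CM-CKO 1, 2 or 4, or any Control or Het head, ended the call against that group (highest adjusted p over all refits 0.162 for Control and 0.178 for Het). The call against CM-Het ended without CM-CKO 2, and it ended on the arrays of the 2 groups alone (highest adjusted p 0.0615).

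Among genes shared by most white blood cells, 10 had a probe, 6 were tested and 2, 0 and 2 rose against Control, Het and CM-Het. For all genes the share called higher was 3.96%, 4.15% and 5.29%. Laptm5, a lysosomal membrane protein of blood cells, lay at 8.21, 8.49, 7.81 and 8.14 in CM-CKO heads, 7.68 to 8.06 in Het, 7.61 to 7.83 in CM-Het and 7.50 to 7.54 in Control heads. It was higher by 0.65 than in Control (adjusted p = 0.00911) and by 0.42 than in CM-Het (adjusted p = 0.0427), and the value against Het was 0.25 (adjusted p = 0.228). The Laptm5 call against CM-Het held in 6 of 20 refits and ended without any CM-Het head or without CM-CKO 1, 2 or 4 (highest adjusted p 0.279). Was, an actin regulator of blood cells and platelets, was higher by 1.16 than in Control (adjusted p = 0.0415) and by 1.15 than in CM-Het (adjusted p = 0.0244), with 0.85 against Het (adjusted p = 0.0941). Its calls ended without any Control head, any of CM-Het 1 to 3, or CM-CKO 2 or 4, and that against Control also without CM-CKO 1 (highest adjusted p 0.141 and 0.0823). Cd53 and Cd48 were detected on 0 arrays, and Coro1a and Itgb2 were not called.

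Microglia-associated genes gave 5 tested of 9 with a probe, and 1 fell in each CM-CKO comparison. The share of all genes called lower was 3.28%, 4.33% and 4.62% against Control, Het and CM-Het. P2ry12 and Siglech had no kept probe, and Gpr34 was detected on 0 arrays. Tmem119, a microglial marker that bone-forming and other mesenchymal cells also express, read 6.22 to 6.44 in CM-CKO heads, 6.89 to 7.92 in Het, 6.99 to 7.34 in CM-Het and 7.06 to 7.54 in Control heads. All 4 CM-CKO heads lay below all others, as was the case for 3.09% of the tested genes. It fell by 0.92 against Control (adjusted p = 0.00755), 1.06 against Het (adjusted p = 0.00152) and 0.85 against CM-Het (adjusted p = 0.00579). With a slide block the first and the last of these calls ended (highest adjusted p over all refits 0.371 and 0.228). Cx3cl1, the ligand of CX3CR1, was not called (0.15 against Control, adjusted p = 0.723).

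Of 13 lysosomal genes, all were tested and 1 rose in each CM-CKO comparison. Of all genes, 3.96%, 4.15% and 5.29% were called higher against Control, Het and CM-Het. Ctsb, the protease cathepsin B, rose by 0.68 against Control (adjusted p = 0.00554), 0.50 against Het (adjusted p = 0.0169) and 0.60 against CM-Het (adjusted p = 0.00606), and these calls ended in the authors' value table, and those against Het and CM-Het also with a slide block or median scaling (highest adjusted p over all refits 0.993, 0.669 and 0.391). In 1 of 20 refits each, the sign against Het and against CM-Het turned. The call against Het also ended without CM-CKO 2, Het 3 or Het 4. Ctsd, Lamp1 and Grn were not called, at 0.26, 0.00 and 0.12 against Control (adjusted p = 0.408, 0.991 and 0.577).

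**Figure D4:**
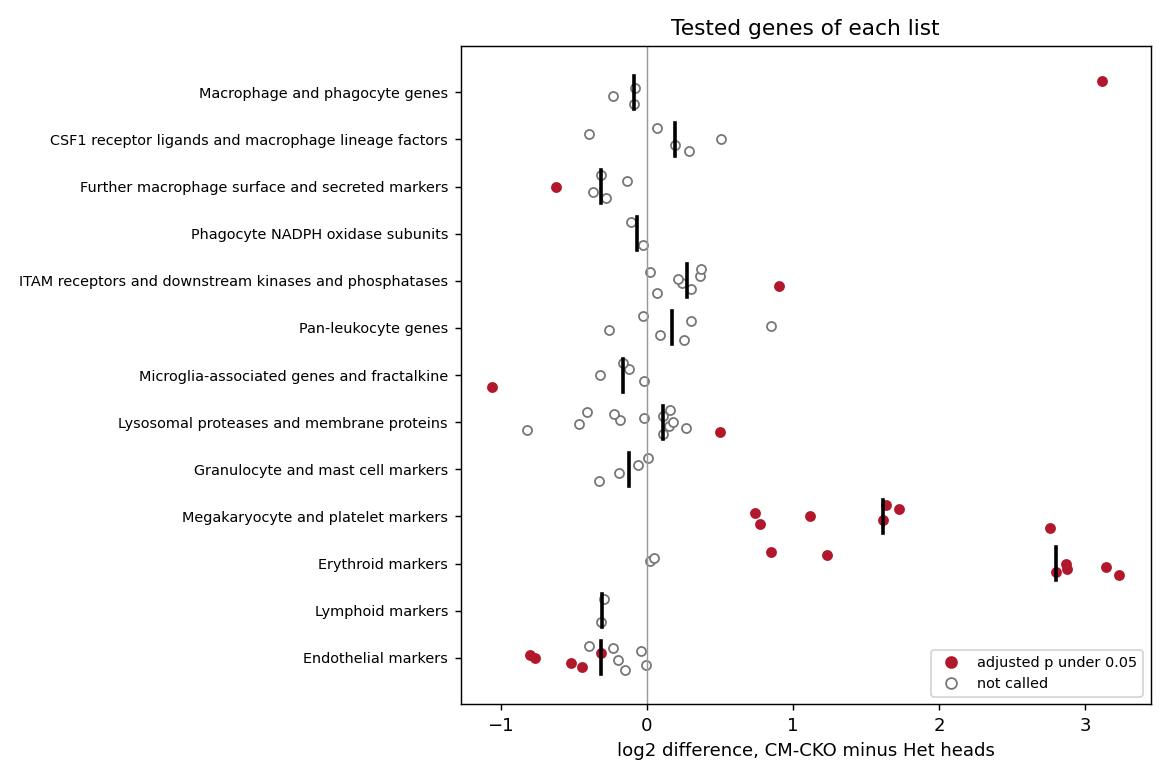
Log2 difference between CM-CKO and Het heads (x axis) of each tested gene (points) in 13 gene lists (y axis), with filled red points for adjusted p under 0.05 and black bars for list medians. Ncf4 lies at 3.11 in the top row beside 3 genes between −0.23 and −0.08, and the megakaryocyte and erythroid rows have medians of 1.62 and 2.80.

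Most tested erythroid and megakaryocyte markers were higher in CM-CKO heads, as Ncf4 was, while no tested granulocyte, mast cell or lymphoid marker was called. Of 9 tested erythroid markers, 6 rose against Control and 7 against each of Het and CM-Het, with medians of 2.56, 2.80 and 2.78. Of 7 tested megakaryocyte and platelet markers, 6, 7 and 7 rose, with medians of 1.72, 1.62 and 1.61. In these comparisons 3.96%, 4.15% and 5.29% of all genes were called higher. The erythroid genes were Alas2, Klf1, Slc4a1, Kel, Sptb, Tfrc and, outside the comparison with Control, Gata1. The megakaryocyte genes were Pf4, Ppbp, Itga2b, Gp9, Treml1, F2rl2 and, outside the comparison with Control, Gp1bb. Ppbp and Gp1bb were kept through the CM-CKO arrays (3 detections there, and 0 and 1 elsewhere), so they had to differ to be tested, and without them, a count chosen after seeing the data, 5 of 5 markers rose in each comparison (medians 1.72, 1.63 and 1.64 against Control, Het and CM-Het). Tfrc kept its call in 9 of 19, 9 of 20 and 6 of 20 refits against Control, Het and CM-Het (highest adjusted p 0.326, 0.136 and 0.275). It was lost in each comparison with a slide block or without CM-CKO 1, 2 or 4, and also without any Control head, any CM-Het head or Het 2, 3 or 4. Gata1 kept its call against Het in 7 of 19 refits, and lost it without any Het head or without CM-CKO 2 or 4 (highest adjusted p 0.169). Without CM-CKO 2 it also lost the call against CM-Het (highest adjusted p 0.0781), as Ppbp lost that against Control without Control 1 or 3 (0.0841). Gp9 lost its call against Control without Control 2 (0.182). On the CM-CKO and Control arrays alone, Klf1, Ppbp, Gp9, Treml1, F2rl2 and Tfrc lost the call against Control. With slide and replicate blocks together, Klf1, Slc4a1, Kel, Itga2b, Gp9, Treml1, F2rl2 and Tfrc lost it. Klf1, the erythroid transcription factor, read 8.41, 10.34, 8.06 and 10.61 in CM-CKO heads, 6.35 to 6.89 in Het, 6.10 to 7.01 in CM-Het and 6.11 to 7.28 in Control heads (2.80 against Het, adjusted p = 0.0018). Pf4, a platelet chemokine, read 9.27, 9.46, 7.46 and 9.35 in CM-CKO heads, 5.63 to 6.46 in Het, 4.55 to 5.61 in CM-Het and 4.78 to 5.96 in Control heads (2.76 against Het, adjusted p = 0.00055). Hbb-bh1 and Hbb-y, globins of the embryo, were not called (−0.04 and 0.12 against Control, adjusted p = 0.851 and 0.541). Their group means were log2 13.6 to 13.8, and how far a rise can be read at such bright signals was not tested.

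The summed signal of the 7 erythroid markers other than globins was 7387 to 29455 in CM-CKO heads, 3414 to 4341 in Het, 3615 to 4069 in CM-Het and 3527 to 4410 in Control heads. That of the 7 megakaryocyte markers was 394 to 1318 in CM-CKO, 191 to 297 in Het, 169 to 229 in CM-Het and 171 to 246 in Control heads. These sums are of normalized signals off the log2 scale. In CM-CKO heads Pf4 was the brightest megakaryocyte marker (mean log2 8.89). Outside CM-CKO the markers other than Pf4 had group means of 4.36 to 5.06, near the detection threshold. The megakaryocyte sum includes Ppbp and Gp1bb. The 4 tested granulocyte and mast cell markers summed to 760 to 924 in CM-CKO, 774 to 1050 in Het, 852 to 937 in CM-Het and 780 to 900 in Control heads, and 0 of the 4 were called. Most of this sum came from Kit, with group means of log2 9.53 to 9.69. The others had group means of 4.52 to 5.22, so the sum says little about them. S100a8, S100a9 and Ctsg, which define granulocytes, were detected on 0 arrays. Of 2 tested lymphoid markers 0 were called. Of 11 endothelial markers, all tested, 2, 5 and 5 fell against Control, Het and CM-Het, beside 3.28%, 4.33% and 4.62% of all genes. Emcn and Cd34 were called each time, and Cdh5, Tek and Esam against Het and CM-Het. Esam kept its call against Het in 8 of 20 refits and lost it with a slide block, without any Het head or without CM-CKO 2, 3 or 4 (highest adjusted p 0.162). Against CM-Het it lost the call without CM-Het 1, 2 or 3 or CM-CKO 2 (0.204). Cd34 kept its call against Control in 13 of 19 refits and lost it without Control 1, Control 2 or CM-CKO 2 (0.132). Its calls against Het and CM-Het ended without CM-CKO 2 (0.0617 and 0.0982), and the second also without CM-CKO 4, CM-Het 2 or CM-Het 4. Cdh5 lost both calls with a slide block and that against Het without CM-CKO 2 (0.101 and 0.0998). The part of any of these cell types in the Ncf4 result was not tested.

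The CM-CKO heads ran from CM-CKO 3, the lowest in Ncf4, through CM-CKO 1 and 2 to CM-CKO 4. That order was shared by 6 of 9 erythroid markers (Alas2, Klf1, Slc4a1, Kel, Sptb and Gata1) and by 3 of 7 megakaryocyte markers (Gp9, Gp1bb and F2rl2). It was shared by 1 of 6 white blood cell genes (Was), 1 of 8 ITAM genes (Trem1), 0 of 11 endothelial genes and 7.54% of the other 11624 genes. Alas2, the first enzyme of haem synthesis in red cells, read 10.57, 11.86, 9.96 and 12.73 in CM-CKO heads. Fcer1g ran otherwise, with CM-CKO 2 lowest, and its value in CM-CKO 2 (4.26) was the lowest of all heads while Ncf4 there was 8.96.

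**Figure D5:**
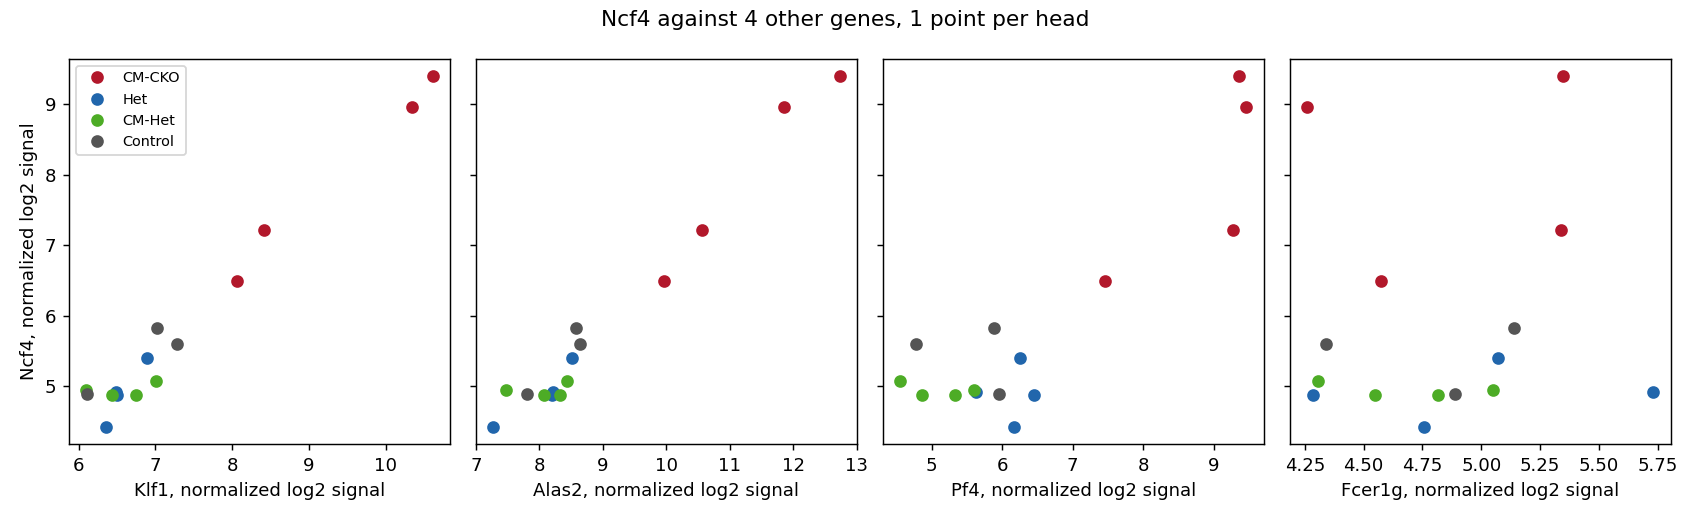
Normalized log2 signal of Ncf4 (y axis) against that of Klf1, Alas2, Pf4 and Fcer1g (x axes), 1 point per head and coloured by genotype group. CM-CKO heads take the same order in Ncf4 as in Klf1 and Alas2, while Fcer1g is at 4.26 in the CM-CKO head with Ncf4 at 8.96.

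Likeness between genes was measured as Pearson's r over the 15 heads after each genotype's mean had been removed, and is given as a description, since genes share arrays and the 4 CM-CKO heads carry most of the variation in Ncf4. The tested members did not vary as a group: the 6 pairs gave r of −0.39 (Mrc1 and Fcer1g) to 0.33 (Aif1 and Fcer1g), and Ncf4 gave −0.02 with Aif1, −0.14 with Mrc1 and 0.07 with Fcer1g. The genes closest to the mean of the 4 members were Foxk1 (0.847), Ogfod2 (0.838), Ptges, Tubgcp5 and Dpm3 (0.828 each). The genes closest to Ncf4 alone, looked up after its values were seen, were St3gal6 (0.963), Mgst3, Pheta2 (0.961 each), Slc38a5 (0.960), Blvrb and Trim10 (0.955 each), then Uros and Asb17os (0.952 each), Gata1 and Tmem14c (0.951 each). Uros is an enzyme of haem synthesis, Blvrb reduces biliverdin and flavins in red cells, and GATA1 is the shared transcription factor of red cells and megakaryocytes.

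Erythroid markers had r with Ncf4 of 0.323 to 0.951 (median 0.902) and megakaryocyte markers 0.446 to 0.859 (median 0.659). ITAM genes had −0.33 to 0.875 (median 0.483), with Btk the closest, and white blood cell genes −0.51 to 0.819 (median 0.355), with Was the closest. Endothelial markers had −0.91 (Tek) to 0.343 (median −0.51). All genes had a median of −0.07, a 5th percentile of −0.66 and a 95th of 0.685. In the 11 heads outside CM-CKO, Ncf4 spanned only 4.43 to 5.82. There r was taken on the levels themselves, so differences between genotype means also enter it. The erythroid median was then 0.525, over a range of −0.677 (Tfrc) to 0.779 (Alas2), with Klf1 at 0.738 and Hbb-y at 0.007. Megakaryocyte markers had a median of −0.17 (−0.49 to 0.324). For all genes the median was −0.01 and the 95th percentile 0.552.

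In the RefSeq gene order the nearest gene to Ncf4 on one side is Csf2rb2, a beta chain of the receptor for IL3 in mice, followed by Csf2rb and Tex33, and on the other Pvalb, Ift27 and Cacng2. These 6 were looked up after the Ncf4 values were known. Csf2rb2 was detected on all 4 CM-CKO arrays and on 0 of the other 11. Its log2 level averaged 5.76 ± 0.77 (SD, n = 4) in CM-CKO, 4.34 ± 0.07 (n = 4) in Het, 4.32 ± 0.14 (n = 4) in CM-Het and 4.25 ± 0.05 (n = 3) in Control heads. That was at least 2.04-fold higher than in Control (adjusted p = 0.00383), at least 2.04-fold higher than in Het (adjusted p = 0.00324) and at least 2.06-fold higher than in CM-Het (adjusted p = 0.00265). Because it was kept through the CM-CKO arrays alone, it had to differ to be tested. Csf2rb, its close paralogue and shared receptor chain of CSF2, IL3 and IL5, differed by 0.00 from Control (adjusted p = 0.994), and how far a probe of one reads the other is not known. Tex33 was not called (0.07, adjusted p = 0.882), Ift27 fell by 0.44 against Control (adjusted p = 0.0412), and Pvalb and Cacng2 had no kept probe.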

How the data were processed

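Arrays were read from the deposited table of intensities, which per the file headers holds 1 signal and 1 detection p-value per probe and array. The signals were not normalized or background-corrected, and their software is not named in the sources used here. The authors' value table holds log2 signals, and quantile normalization of the deposited intensities without background correction gave the same values within 0.02 for 42477 of 45281 probes and for all 15 member probes. The deposited p-values did not follow the signals' row order (74.4% to 75.6% of entries out of place by over 0.05), so they were re-attached by rank within each array. The column of Het 1 held log2 values instead, and it was given the average by rank of the other 14.

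Signals were corrected with limma's nec (offset 16), quantile-normalized and put on the log2 scale. Probes detected (p under 0.05) on at least 3 arrays were kept (21869), and each gene was read from its brightest kept probe (11625 genes). Of all probes, 34885 had 1 gene name, 18 several and 10378 none. The 4 groups were fitted together with genotype as the only factor (limma 3.58.1, R 4.3.3: lmFit, contrasts.fit, eBayes), and Benjamini-Hochberg adjustment ran over all genes. The methods were tested on simulated data. For a gene detected on no array of a group, the fold is a lower bound, set against that group's detection threshold.

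The 10 genes and all other lists were chosen with earlier results of these data known. Named from each other list were its genes called against Control or Het and up to 4 well-known others, and the 5 genes most like the members; genes outside this rule are marked where they appear. P-values measure the spread between these samples only, since the labels do not state litters. Replicate numbers were not treated as pairs: 5 of 21 correlations of same-numbered deviations exceeded 0.1 (range −0.131 to 0.329). No baseline from differently numbered samples is given, so this cannot exclude pairing. The alternatives tried were the background correction, normalization, filter, choice of probe, authors' value table, slide and replicate blocks, and samples left out. Precision is limited by the number of arrays and by signal over background. No promoter or probe sequence of Ncf4 was used here. Figures were drawn with matplotlib 3.10.9.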

Additional observations from a re-analysis of the deposited data

Results flagged for a closer look

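The Ncf4 interaction, at 3.61 on the log2 scale (adjusted p = 0.0209), was a tested difference between the change with Cre on floxed over deleted Twist1 and that on floxed over wild-type Twist1. Among 45 sets of heads (a member probe in a group of 4), 4 held a head far from the other 3, and chance alone does this in about 1 set of 20. Ptprc probe 1 read 4.25 in CM-CKO 3 against 4.36 to 4.37 in the other CM-CKO heads. Ptprc probe 4 read 4.20 in Het 4 against 4.33 to 4.35 in the other Het heads, and 4.17 in CM-Het 2 against 4.24 to 4.25 in the other CM-Het heads. Spi1 read 4.55 in CM-Het 3 against 4.37 to 4.40 in the other CM-Het heads. All 4 values lay below the detection threshold.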

How the results depend on the processing

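The Ncf4 rise kept its sign in all refits run. Its call against Het and CM-Het held in all 19 refits each, against Control in 16 of 18 and for the interaction in 21 of 25. The 21 results of Aif1, Mrc1 and Fcer1g gave 0 calls in 408 refits (lowest adjusted p 0.0685). With heads left out, Ncf4 ran from 2.12 to 3.09 against Control, 2.65 to 3.62 against Het, 2.61 to 3.58 against CM-Het and 3.15 to 4.11 for the interaction, and the number of members called for the interaction from 0 to 1. Without background correction, or in the authors' value table (1.82, adjusted p = 0.0983), 0 members were called for the interaction. Requiring detection on all 15 arrays left no member to test.

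Replicate numbers were not treated as pairs in the main fit. A replicate block changed the calls over all genes to 755 from 841 against Control, 983 from 985 against Het, 1129 from 1152 against CM-Het, 0 from 2 for CM-Het against Het and 153 from 124 for the interaction, with 0 in Het and CM-Het against Control. It ended no Ncf4 call (2.43, 3.11, 3.07 and 3.75). The replicate block with a slide block gave 31, 681, 399, 0 and 87 (90.3%, 67.3% and 77.9% higher against Control, Het and CM-Het and 86.2% for the interaction, against 54.7%, 48.9%, 53.4% and 62.9%), and 0 members against Control (Ncf4 3.80, adjusted p = 0.0825).

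Counts over all genes moved by over 1.5 times in these settings. Median scaling gave 434 against Control (77.4% higher, against 54.7%), 582 against Het and 4 for CM-Het against Het, while its 887 against CM-Het moved by less but were 38.9% higher, against 53.4%. The arrays of the compared groups alone gave 272 against Control (0 members), 333 against Het, 2 for CM-Het against Control and 6 for CM-Het against Het. A slide block gave 263 and every kept probe 193 for the interaction. Every kept probe also gave 6 for CM-Het against Control and 7 for CM-Het against Het, the mean of probes 2 for CM-Het against Control, and normexp on the signals alone 1 for Het against Control. With heads left out, the counts ran from 385 to 1029 against Control, 504 to 1272 against Het, 550 to 1256 against CM-Het, 0 to 1 for Het against Control, 0 to 0 for CM-Het against Control, 0 to 2 for CM-Het against Het and 57 to 330 for the interaction. The cause of these moves was not tested. Signals near background limit 8 of the 9 measured members in every group. In the 11 heads outside CM-CKO, Ncf4 (log2 4.43 to 5.82) also lay close to the detection threshold of 4.71 to 4.76. Its folds therefore rest on dim signals in the groups compared. The log2 rise of Ncf4 against Control was 2.58 with background correction and 1.49 without it.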
